A study of Danio rerio with 24 samples.

Results

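The set described here is the collagen genes of the zebrafish (Danio rerio) gene count table. Its members were the protein-coding genes whose symbol begins with "col", a type number, "a" and a chain number, with at least 10 counts in 4 or more libraries. The symbol pattern matched 56 of the 37660 genes in the table, and 53 met the count rule. Of these, 51 were collagen chain loci: 15 of fibrillar types, 6 of the type IV collagens of basement membranes and 30 of other types. The remaining col4a3bpa and col4a3bpb encode the ceramide transfer protein, which is no collagen chain, and were taken in by their names only. The genes that missed the count rule were a pair of overlapping col6a3 loci on chromosome 9, with at most 6 counts in any library, and col8a1a, at 0 counts in all 24 libraries. All 53 passed the expression filter of the test, so no member was lost there.

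A collagen is built of polypeptide chains wound into a triple helix inside the endoplasmic reticulum, where proline and lysine residues are hydroxylated before the molecule is secreted, trimmed and cross-linked. Fibrillar collagens form the rope-like fibrils of skin, tendon, bone and cartilage, whereas type IV collagen forms the sheet-like network of basement membranes. Other types decorate fibrils, anchor epithelia to the tissue beneath or form short-chain networks around cartilage cells. In the zebrafish embryo, the notochord sheath, the cartilage of the head, the fin folds and the skin are rich in collagen.

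The libraries were poly(A) RNA-seq of whole embryos at 3 days post fertilisation, each from a pool of about 50 embryos, so that fewer cells of a type and less RNA per cell cannot be told apart. The 2 genotypes, wild type (WT) and a line labelled knockout (KO), were each given DMSO, the solvent control, or 0.5 µM ML233 for 3 h or 24 h, with 4 libraries in each of the 6 groups. ML233 is a small molecule introduced as an agonist of the apelin receptor, and the series title names it a tyrosinase inhibitor. All fish came from the AB strain, with WT controls from the same grandparents as the mutants. The sample titles name an apelin receptor knockout, the growth protocol speaks of aplnr(a/b) mutants made with Cas9 guides and also describes an apelin mutant, and the series text names an apelin knockout, so the line is called labelled KO or KO without stating which gene was mutated. The DMSO libraries are labelled 0 h, so an effect of ML233 and an effect of elapsed time cannot be told apart. The labels call the libraries biological replicates and do not say which pools shared a clutch.

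Totals ran from 28950937 to 43352202 counts per library. Levels are given as CPM, the usual scaling of counts to library size, here on TMM-scaled library sizes, and as CPM per kb of gene length where genes are compared with each other. Levels of apln, aplnra and aplnrb, the apelin gene and its receptor genes, were 95.4 to 112, 23.3 to 25.8 and 21.4 to 27 CPM in WT libraries. In KO libraries they were 82.9 to 95.2, 13.3 to 21.3 and 9.70 to 17.7 CPM, below all WT libraries for each gene. Over all genes, 0.600% had WT and KO ranges that did not overlap. A lower transcript level does not show which gene was mutated, and small insertions or deletions need not lower it. These levels thus do not check the label. The libraries fell into pairs within each group. WT replicates 3 and 4 stood apart from replicates 1 and 2 in all treatments. Among the KO libraries, 6 lay on the positive side of the first principal component of log2 CPM, which held 41.6% of the variance: DMSO replicates 2 and 4, 3 h replicates 3 and 4 and 24 h replicates 2 and 4. They lay at 37.5 to 143.2, with 24 h replicate 2 at the far end. Some WT libraries lay on that side too, at 6 to 43.4: DMSO replicate 3, 3 h replicates 3 and 4 and 24 h replicate 3. The WT pairs and the sets of 6 KO libraries were seen in the data and are not groups of the study. The labels give no reason for them, and the KO against WT results are given with and without them. In KO libraries at the negative and the positive side of that component, aplnrb was at 16.1 to 17.7 and 9.70 to 12.4 CPM. Levels of aplnra were 17.2 to 21.3 and 13.3 to 16.8 CPM, and those of apln 85.2 to 95.2 and 82.9 to 93.9 CPM. A link between these levels and the sets was not tested. The 6 KO libraries were picked by that component of these same data. The share of all genes whose levels separated them from the other libraries is not given. Separations of these 6 libraries are thus description and not results particular to collagens.

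Collagen chains made up 0.907% to 1.57% of all counts in a library. Per kb, the 2 highest levels belonged to type I, the main collagen of skin, tendon and bone. The locus col1a1b (ENSDARG00000035809, GRCz11 chr12:3095699-3133483, minus strand) averaged 350 CPM per kb over the 24 libraries, and col1a2 (ENSDARG00000020007, chr19:40983221-41002980, plus strand) averaged 286. Next came col10a1a, a short-chain collagen of hypertrophic cartilage and bone-forming cells, at 148 CPM per kb, then col2a1a, the main fibrillar collagen of cartilage and notochord, at 144, and the type IX chains col9a2 at 137 and col9a3 at 136, which coat type II fibrils. The ranges of these last 4 genes over libraries overlapped, so their order is not resolved. Type IV was led by col4a5 at 57.9 CPM per kb, followed by col4a6 at 18.8 and col4a2 at 11.9. The lowest collagen chains were col5a3a at 0.309, col4a4 at 0.360, col27a1b at 0.401 and col4a3 at 0.426 CPM per kb.

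**Figure D1:**
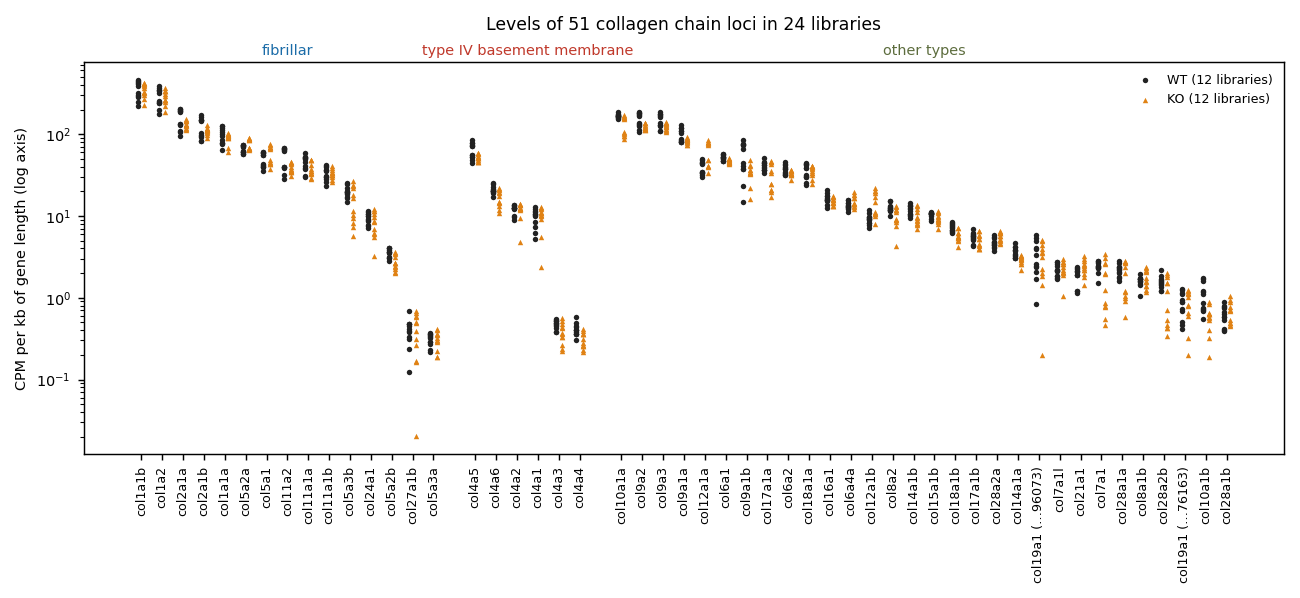
CPM per kb of gene length (log axis) of each of the 51 collagen chain loci, ordered within fibrillar, type IV and other types, with 1 point per library for the 12 WT and the 12 KO libraries. The loci span from 350 CPM per kb on average for col1a1b to 0.309 for col5a3a, and single loci span from 1.32-fold over the 24 libraries for col6a1 to 33.9-fold for the low col27a1b.

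Ratios between chains of a type, as levels per kb, were narrow for type I and for col9a2 over col9a3. They were wider for type IV and for col9a1a over col9a1b. The type I ratio, col1a1a plus col1a1b over col1a2 per kb, lay between 1.42 and 1.65 in all 24 libraries. The type IX ratio of col9a2 to col9a3 lay between 0.948 and 1.07, while that of col9a1a to col9a1b, also type IX, ran from 1.45 to 5.55. The ratio of col4a1 to col4a2 ran from 0.500 to 0.933, and that of col4a3 to col4a4 from 0.836 to 1.58. The chains col4a5 and col4a6 lie head to head on chromosome 7 of GRCz11, chr7:51103232-51194430 on the plus strand and chr7:50920437-51102479 on the minus strand, 752 bases apart, and the ratio of their levels per kb followed the library sets. It was 2.54 to 2.79 in the 6 WT libraries numbered 1 and 2 and 3.12 to 3.82 in the 6 numbered 3 and 4. In KO it was 2.68 to 2.79 in the 6 libraries at negative PC1 and 3.42 to 4.23 in the 6 at positive PC1.

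Fibrillar collagens differed most often between the library pairs of WT. Their summed level was 5022 to 6939 CPM in WT replicates 1 and 2 and 8791 to 9855 CPM in WT replicates 3 and 4, without overlap. In the KO libraries the sum was 5366 to 7334 CPM at negative PC1 and 7632 to 8461 CPM at positive PC1. The type IV sum was 563 to 677 and 728 to 897 CPM in the same WT sets, and 583 to 723 and 431 to 599 CPM in the same KO sets, so it was lowest in KO libraries whose fibrillar sum was high. The other types summed to 3107 to 3741 and 4270 to 4682 CPM in WT and to 3305 to 3864 and 3570 to 3921 CPM in KO. Gene by gene, 22 of the 51 chains were higher in all 6 WT libraries numbered 3 and 4 than in all 6 numbered 1 and 2, namely 11 of 15 fibrillar, 1 of 6 type IV and 10 of 30 other chains, and 1 chain was lower. Over all genes tested, 14.5% were higher and 14.5% were lower in this way. The labels name no batch for these pairs, and no test was made between them.

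**Figure D2:**
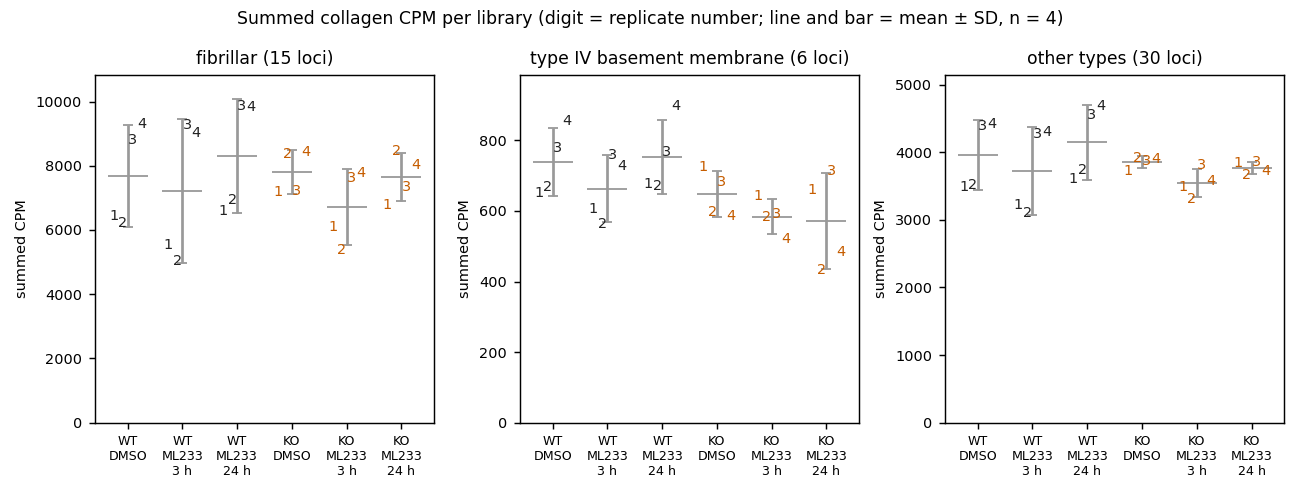
Summed CPM per library for the 15 fibrillar, 6 type IV and 30 other collagen loci, by group; digits are replicate numbers, and line and bar are the mean and SD of 4 libraries. In WT, replicates 3 and 4 sit above replicates 1 and 2 in each group, for example at 8791 CPM or more against 6939 CPM or less in the fibrillar panel.

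Without treatment, collagen levels of KO and WT embryos overlapped for most genes. In KO DMSO against WT DMSO, edgeR's quasi-likelihood test with Benjamini-Hochberg adjustment over all 27010 genes tested called 0 of 53 members at an adjusted p under 0.05, where it called 0.148% of all genes. At an unadjusted p under 0.05 there were 4 of 53, against 10.7% of all genes, and DESeq2 called 0. Of the 51 chains, 15 had a log2 fold change above 0 and 36 below, with a median of -0.10 against 0 over all genes. The 4 were col12a1b, with a log2 fold change of 0.79, col10a1b with -1.16, col28a2a with 0.32 and col12a1a with 0.64, at edgeR adjusted p of 0.248 to 0.418. The ranges of the 4 KO and the 4 WT libraries did not overlap for 3 of 53 members, col10a1a, col10a1b and col28a2a, where they did not overlap for 7.08% of all genes. At 3 h of ML233, KO against WT again called 0 members, against 0.148% of all genes, with 9 of 53 against 12% of all genes at an unadjusted p under 0.05. At 24 h it called 0 members, against 0.459% of all genes, with 11 of 53 against 14.6% of all genes at an unadjusted p under 0.05. DESeq2 called 0 members in both.

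Averaged over the 3 treatments, 14 of the 53 members, all of them collagen chains, passed the threshold, 3 higher and 11 lower in KO. That is 26.4% of the members, where 15.7% of all genes passed. By direction, 5.66% of the members were higher and 20.8% lower, where 9.39% of all genes were higher and 6.30% lower. This comparison treats the 12 libraries of each genotype as independent, which the pairs described above do not show. With the library pair as a random block in limma-voom, 0 of 53 members passed, where 0.00370% of all genes did, and 9 had an unadjusted p under 0.05, against 6.30% of all genes. The folds moved little in that fit: the median over the 53 members was -0.16, against -0.15, and all 14 kept their sign. With the replicate number as a block 18 members passed, where 19.3% of all genes did, and with DESeq2 16, where 19% did. No member had WT and KO ranges that did not overlap over 12 against 12 libraries, where 0.600% of all genes did. Without the 6 KO libraries at positive PC1, 0 members passed, where 1.79% of all genes were higher and 2.28% lower, and 9 had an unadjusted p under 0.05, against 20.9% of all genes. Without WT replicates 3 and 4, 4 members passed, all of them higher in KO, where 4.73% of all genes were higher and 1.71% lower.

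**Figure D3:**
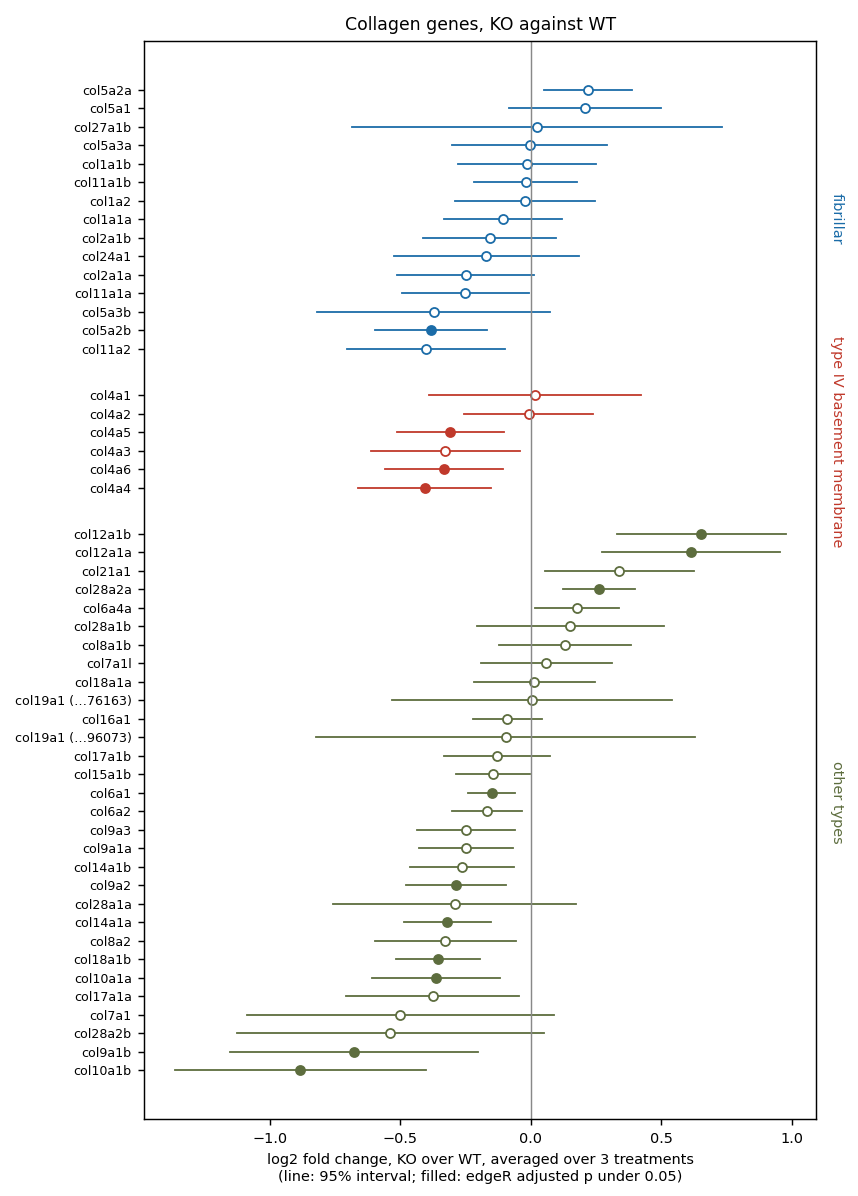
Log2 fold change of KO over WT, averaged over 3 treatments, with its 95% interval, for the 51 collagen chain loci by class; filled points passed an adjusted p of 0.05. Of the filled points, 3 lie above 0 (col12a1a, col12a1b, col28a2a) and 11 below.

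Fibrillar collagens held 1 of the 14. The sole fibrillar chain that passed, col5a2b, encodes a type V chain; type V collagen takes part in starting and sizing type I fibrils. It was at 17.1, 15.6, 19.9 and 17.9 CPM in WT DMSO, 15, 13.8, 17.9 and 20 in WT at 3 h, and 17.9, 14.9, 19 and 20 in WT at 24 h, in the order of replicates 1 to 4. In KO it was at 17.5, 12.9, 15.4 and 11.8 CPM in DMSO, 16.5, 13.1, 11 and 9.71 at 3 h, and 13.1, 10.2, 17.6 and 11.5 at 24 h. The 6 KO libraries at positive PC1 held the lowest values and the other KO libraries overlapped with WT. Averaged over treatments, the log2 fold change was -0.38 (SE 0.10, adjusted p = 0.0156 in edgeR).

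Its paralog col5a2a ran the other way at a higher level. The WT values were 309, 303, 366 and 348 CPM in DMSO, 291, 291, 359 and 369 at 3 h, and 303, 316, 371 and 373 at 24 h. The KO values were 339, 455, 339 and 445 CPM in DMSO, 329, 320, 435 and 425 at 3 h, and 339, 438, 335 and 458 at 24 h. In both genotypes the libraries split into a low and a high set. Its averaged log2 fold change was 0.22 (SE 0.08) and did not pass the threshold (edgeR adjusted p = 0.0716), but col5a2a passed with the replicate number as a block (0.22, adjusted p = 0.0257), without WT replicates 3 and 4 and without both sets of 6 libraries. The type V alpha-1 chain col5a1 showed the same split, at 359 to 461 CPM in the 6 KO libraries at negative PC1 and 643 to 737 CPM at positive PC1, with WT at 343 to 592 CPM.

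Type I did not differ between genotypes beyond its spread. The col1a1b values were 1645, 1611, 2191 and 2412 CPM in WT DMSO, 1385, 1238, 2366 and 2321 in WT at 3 h, and 1698, 1774, 2561 and 2501 in WT at 24 h. In KO they were 1788, 2282, 1829 and 2343 CPM in DMSO, 1525, 1278, 2043 and 2178 at 3 h, and 1703, 2391, 1859 and 2266 at 24 h. A lower and a higher set of libraries recurred in both genotypes, and the sets of WT and KO overlapped. The averaged log2 fold change of col1a1b was -0.01 (95% interval -0.28 to 0.25), and that of col1a2 was -0.02 (-0.29 to 0.25). Of the cartilage fibril chains, col2a1a had a log2 fold change of -0.25 (-0.51 to 0.01, edgeR adjusted p = 0.200), and col11a2, a type XI chain found in type II fibrils, -0.40 (-0.70 to -0.10, adjusted p = 0.0653). The latter passed, lower in KO, with the replicate block (-0.34, adjusted p = 0.0420) and with DESeq2 (-0.40, adjusted p = 0.0432). Both were above 0, at 0.18 and 0.11, without WT replicates 3 and 4.

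Of the 6 type IV chains, 3 passed, all lower in KO: col4a4 with a log2 fold change of -0.41 (SE 0.12, adjusted p = 0.0288 in edgeR), col4a5 with -0.31 (SE 0.10, adjusted p = 0.0372) and col4a6 with -0.33 (SE 0.11, adjusted p = 0.0414). In humans, mutations of the alpha-3, alpha-4 and alpha-5 chains cause the kidney disease Alport syndrome. The WT values of col4a5 were 344, 343, 467 and 502 CPM in DMSO, 310, 288, 474 and 466 at 3 h, and 360, 357, 507 and 544 at 24 h. The KO values were 379, 345, 369 and 334 CPM in DMSO, 333, 308, 329 and 292 at 3 h, and 344, 296, 381 and 299 at 24 h. The KO values, 292 to 381 CPM, lay beside those of WT replicates 1 and 2, 288 to 360 CPM, and below all 6 values of WT replicates 3 and 4. Without WT replicates 3 and 4 the log2 fold change of col4a5 was 0.01.

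For col4a6 the low values were in KO. It was at 170, 169, 190 and 211 CPM in WT DMSO, 160, 144, 181 and 165 in WT at 3 h, and 169, 172, 174 and 216 in WT at 24 h. The KO values were 185, 126, 174 and 122 CPM in DMSO, 162, 146, 126 and 110 at 3 h, and 164, 91.5, 179 and 98.6 at 24 h. The 6 KO libraries at positive PC1 were below all 12 WT libraries, and the other 6 overlapped with WT. Different libraries thus stood apart in the adjacent chains, WT replicates 3 and 4 for col4a5 and the 6 KO libraries for col4a6. The loci col4a3 and col4a4 overlap each other by 538 bases on opposite strands of chromosome 15. They averaged 143.9 and 132.6 counts over their whole length, so each overlaps a locus with a count near its own. The counting is not stated to use strand, so the col4a4 value is uncertain. The broadly expressed pair col4a1 and col4a2 had log2 fold changes of 0.02 (95% interval -0.39 to 0.42) and -0.01 (-0.25 to 0.24).

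Among the other types, 10 of 30 passed, 3 higher and 7 lower. The largest rises were in both type XII genes, whose product bridges fibrils in tendon, fascia and fin folds. The locus col12a1a (ENSDARG00000078322, chr17:49785495-49978986, minus strand) was at 359, 363, 489 and 536 CPM in WT DMSO, 345, 321, 482 and 476 in WT at 3 h, and 371, 369, 468 and 517 in WT at 24 h. Its level in KO was 428, 846, 520 and 923 CPM in DMSO, 442, 365, 856 and 799 at 3 h, and 524, 813, 440 and 859 at 24 h. The 6 KO libraries at positive PC1 were at 799 CPM or more, above every other library, and the remaining KO libraries, at 365 to 524 CPM, lay within the WT range of 321 to 536 CPM. The mean was 425 CPM ± 76.3 in WT and 651 CPM ± 213 in KO (SD, n = 12), and the averaged log2 fold change was 0.62 (SE 0.16, adjusted p = 0.0141 in edgeR). It was 0.08 without those 6 libraries, 0.88 without WT replicates 3 and 4, and 0.35 without both sets, where it passed again (adjusted p = 0.00294).

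The second type XII locus, col12a1b (ENSDARG00000019601, chr20:49451764-49681850, minus strand), had the same pattern. It was at 84.9, 91.8, 108 and 121 CPM in WT DMSO, 91.1, 79.5, 107 and 101 in WT at 3 h, and 97.6, 103, 101 and 132 in WT at 24 h. KO libraries held 116, 220, 121 and 243 CPM in DMSO, 110, 87.2, 224 and 186 at 3 h, and 117, 162, 123 and 210 at 24 h. On average the log2 fold change was 0.65 (SE 0.16, adjusted p = 0.00701 in edgeR). Relative to type I, col12a1a per kb was 0.111 to 0.166 of col1a2 in WT libraries. In KO this ratio was 0.151 to 0.199 in the 6 libraries at negative PC1 and 0.208 to 0.273 in the 6 at positive PC1.

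**Figure D4:**
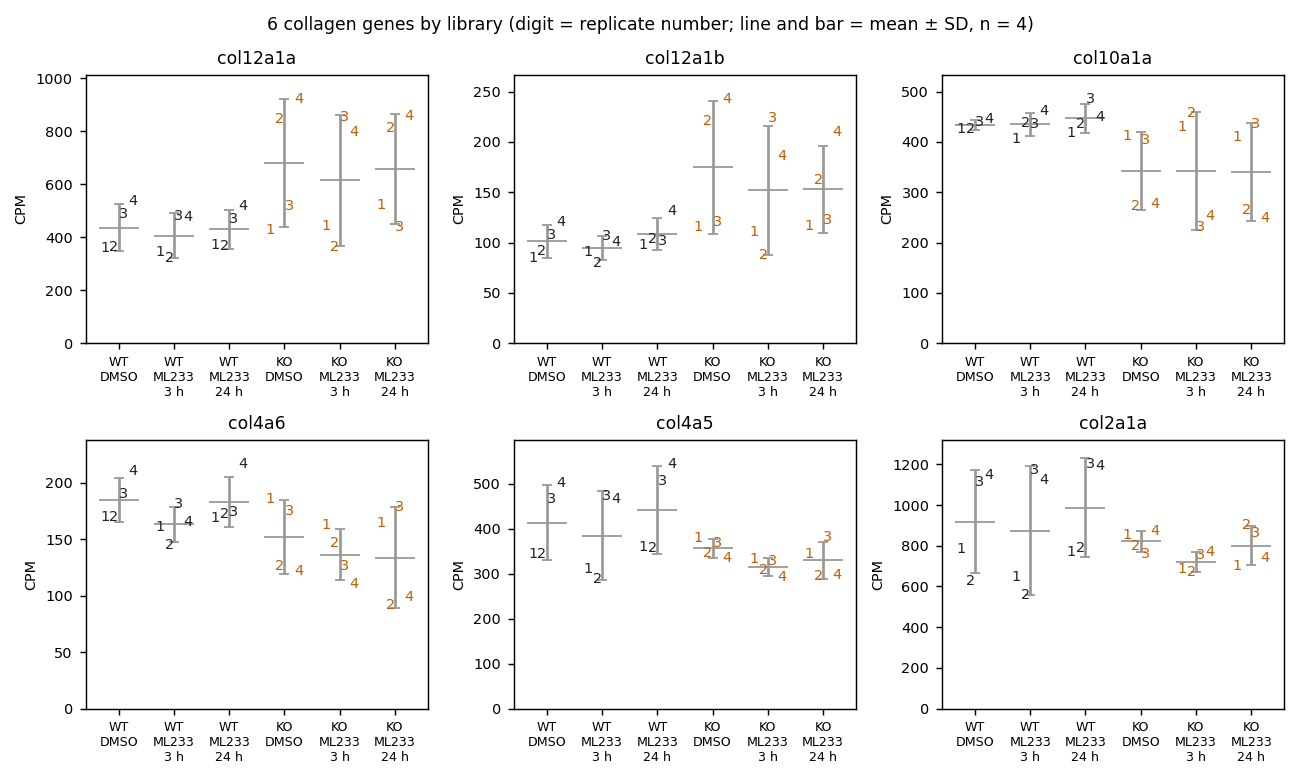
CPM of 6 collagen genes by library; digits are replicate numbers, and line and bar are the mean and SD of 4 libraries. KO DMSO replicates 2 and 4, KO 3 h replicates 3 and 4 and KO 24 h replicates 2 and 4 stand above the rest for col12a1a, at 799 CPM or more, and below for col10a1a, at 277 CPM or less.

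The third gene that was higher, col28a2a, encodes a type XXVIII chain with von Willebrand factor A domains. It was at 26.5, 27.5, 25.4 and 27.5 CPM in WT DMSO, 25.1, 21.4, 23.6 and 23.1 in WT at 3 h, and 25.1, 31.3, 30.2 and 32.7 in WT at 24 h. In KO it was at 29.7, 35.0, 36.5 and 32.5 CPM in DMSO, 28.5, 25.6, 36.8 and 27.8 at 3 h, and 32.6, 26.5, 35.0 and 34.9 at 24 h. All 4 KO libraries were above all 4 WT libraries in DMSO and at 3 h, and the groups overlapped at 24 h; at 3 h, 6.82% of all genes had ranges that did not overlap. Here the KO libraries did not split by PC1. Averaged over treatments, the log2 fold change was 0.26 (SE 0.07, adjusted p = 0.00969 in edgeR). It stayed between 0.22 and 0.29 in all 32 alternative fits, 24 of which left out a single library. Of the 32, 29 called it. It was not called without the 6 KO libraries at positive PC1, without WT replicates 3 and 4, or with the library pair as a random block.

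Among genes that were lower, col10a1a had a narrow WT range. It was at 427, 425, 440 and 446 CPM in WT DMSO, 406, 438, 435 and 462 in WT at 3 h, and 419, 435, 485 and 449 in WT at 24 h. The KO values were 412, 273, 405 and 277 CPM in DMSO, 430, 457, 230 and 253 at 3 h, and 410, 264, 436 and 250 at 24 h. The 6 KO libraries at positive PC1 were at 230 to 277 CPM, and the other 6, at 405 to 457 CPM, overlapped with WT. Its averaged log2 fold change was -0.36 (SE 0.12, adjusted p = 0.0404 in edgeR), and -0.05 without those 6 libraries. Its low paralog col10a1b was at 1.31 to 4.05 CPM in WT and 0.441 to 2.1 in KO. The log2 fold change of col10a1b was -0.88 (SE 0.23, adjusted p = 0.0129 in edgeR). The overlapping locus nt5dc1, on the opposite strand, averaged 409.5 counts over its whole length, against 65.8 for col10a1b. How many of those counts fall in the overlap is not known, so the col10a1b value is uncertain.

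The multiplexin chain col18a1b, of the type that releases endostatin, had the smallest p of the averaged comparison. It was at 22.1, 24.3, 27.6 and 29 CPM in WT DMSO, 25.3, 22.4, 26.5 and 30.3 in WT at 3 h, and 23.6, 24.3, 28.5 and 27.1 in WT at 24 h. Its level in KO was 25.7, 18.4, 25.1 and 19.6 CPM in DMSO, 19.4, 20.3, 17.5 and 19.2 at 3 h, and 21.8, 14.9, 22.3 and 19.5 at 24 h. All 4 KO libraries were below all 4 WT libraries at 3 h and at 24 h, and the groups overlapped in DMSO; 5.86% of all genes had ranges that did not overlap at 24 h. Over the 3 treatments the log2 fold change was -0.35 (SE 0.08, adjusted p = 0.00422 in edgeR). At 3 h alone it was -0.45 (SE 0.14) and did not pass (adjusted p = 0.160). Over 32 alternative fits the averaged value lay between -0.38 and -0.09, and 28 called col18a1b. It was not called without the 6 KO libraries at positive PC1, without WT replicates 3 and 4, or without both. With the library pair as a random block it was not called either.

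The type IX chain col9a1b spanned a 5.74-fold range over the 24 libraries, wider than any member with a higher mean level. It was at 112, 113, 221 and 197 CPM in WT DMSO, 70.0, 44.4, 229 and 231 in WT at 3 h, and 133, 124, 255 and 220 in WT at 24 h. KO libraries held 109, 99.9, 126 and 97.6 CPM in DMSO, 66.7, 48.0, 101 and 103 at 3 h, and 124, 144, 111 and 102 at 24 h. WT replicates 3 and 4 were high throughout, and replicates 1 and 2 at 3 h were the lowest of both genotypes. On average the log2 fold change was -0.68 (SE 0.23, adjusted p = 0.0484 in edgeR), and 0.11 without WT replicates 3 and 4. The other chains that passed were col9a2 (-0.29), col14a1a, a fibril-associated type XIV chain (-0.32), and col6a1, of the microfibrils around muscle fibres (-0.15), all lower in KO. At 24 h alone col14a1a had the smallest p of the members, with a log2 fold change of -0.42 (edgeR adjusted p = 0.165). Of the type IX chains, col9a2 was at 0.06 without both sets of libraries.

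Some chains of the skin attachment complex, and chains outside it, were low in the 6 KO libraries at positive PC1. These did not pass the averaged comparison. Type XVII collagen spans the membrane of basal epidermal cells in hemidesmosomes, and type VII forms the fibrils that anchor the basement membrane. In those 6 libraries col17a1a was at 81.3 to 117 CPM, against 158 to 220 CPM in the other KO libraries and 159 to 245 CPM in WT. There col7a1 was at 5.04 to 13.6 CPM, against 21.4 to 37.1 CPM in the other KO libraries and 16.4 to 30.9 CPM in WT. The fibrillar chain col5a3b was at 32.7 to 64.7 CPM, against 93.1 to 153 CPM and 85.2 to 145 CPM. The averaged log2 fold changes were -0.38 (edgeR adjusted p = 0.116), -0.50 (adjusted p = 0.259) and -0.37 (adjusted p = 0.268). With the replicate number as a block, col17a1a passed (-0.43, adjusted p = 0.0481), and the other 2 did not.

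Without both sets of 6 libraries, the remaining replicate pairs of each group gave a different list: 10 members passed, all higher in KO, of which 5 were fibrillar, 0 type IV and 5 of other types. Over all genes, 5.22% were higher and 4.82% lower in that fit. They were col12a1a (0.35), col12a1b (0.29), col28a2a (0.26), col11a1a (0.22), col28a1a (0.21), col2a1b (0.20), col11a2 (0.19), col5a3b (0.18), col5a2a (0.14) and col9a3 (0.12), each as a log2 fold change. Of the 14 members that passed with all libraries, 3 were among them. Of those 14, 11 kept their sign. The median over the 53 members was 0.08, where it was -0.15 with all libraries. Both sets were picked from these same data, so this list is description. Among the left-out libraries, KO medians were below WT medians for col2a1b (589 against 772 CPM), col11a2 (285 against 533) and col11a1a (229 against 360). They were below as well for col5a3b (49.7 against 112 CPM), col28a1a (5.44 against 11.4) and col9a3 (354 against 536). For col12a1a, col12a1b, col28a2a and col5a2a they were above.

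**Figure D5:**
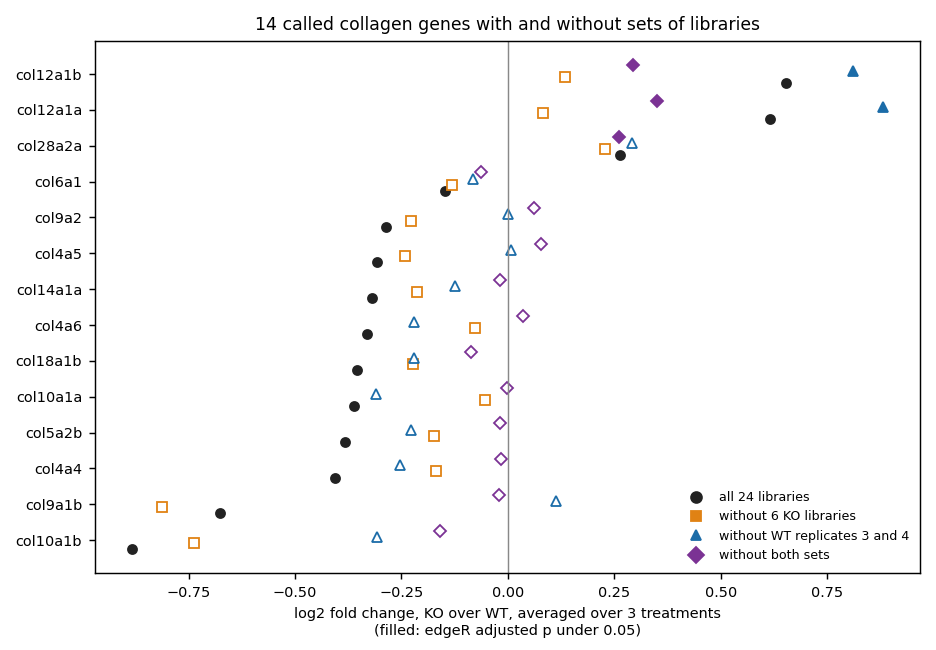
Log2 fold change of KO over WT, averaged over 3 treatments, for the 14 members that passed with all 24 libraries, beside the same values without the 6 KO libraries at positive PC1, without WT replicates 3 and 4, and without both; filled points passed an adjusted p of 0.05. Of the 14, col28a2a changed least, between 0.22 and 0.29 over all alternatives, while col12a1a moved between 0.08 and 0.88.

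ML233 exposure gave no call among the collagens. In WT at 3 h against DMSO, 0 of 53 members passed and 0 had an unadjusted p under 0.05, where edgeR called 0% of all genes and 1.68% had such a p. Of the 51 chains, 46 had a log2 fold change below 0, with a median of -0.12 against 0 over all genes. In KO at 3 h, 46 of 51 were below 0 as well, with a median of -0.16 against 0, and again 0 passed and 0 had an unadjusted p under 0.05, where 0% of all genes were called and 1.51% had such a p. At 24 h, 37 of 51 were above 0 in WT, with a median of 0.06, and 39 of 51 were below 0 in KO, with a median of -0.07; 0 members passed in either and 0 had an unadjusted p under 0.05, where 0% of all genes were called and 0.929% in WT and 2.82% in KO had such a p. DESeq2 called 0 members in each of these. Both ML233 times share their DMSO libraries within a genotype. The edgeR fit held no term for the library pairs, so differences between pairs count as spread within a group. The absence of calls is thus no evidence that levels stayed the same.

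Intervals show the range of changes that the data allow. For col1a1b the log2 fold change of ML233 against DMSO was -0.10 (95% interval -0.56 to 0.35) in WT at 3 h, 0.12 (-0.34 to 0.58) in WT at 24 h, -0.23 (-0.69 to 0.23) in KO at 3 h and 0.00 (-0.46 to 0.45) in KO at 24 h. For col4a5 the values were -0.11 (-0.46 to 0.25), 0.09 (-0.26 to 0.45), -0.18 (-0.53 to 0.18) and -0.11 (-0.47 to 0.24). For col12a1a they were -0.11 (-0.69 to 0.48), -0.02 (-0.61 to 0.57), -0.14 (-0.73 to 0.45) and -0.04 (-0.63 to 0.54). Changes within these intervals remain possible with this spread between libraries. The intervals are not limits of detection.

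The chains with the smallest p in each ML233 comparison were col7a1l, a type VII chain, in WT at 3 h (-0.36, edgeR adjusted p = 1.00), the type XIV chain col14a1b in WT at 24 h (0.30, adjusted p = 1.00), the fibril-associated col16a1 in KO at 3 h (-0.19, adjusted p = 1.00) and col4a2 in KO at 24 h (-0.31, adjusted p = 0.997). For col14a1b the WT values at 24 h, 48.1, 48.2, 53.5 and 50.3 CPM, were above all 4 DMSO values, 37.6, 36.9, 42.5 and 45.9 CPM; ranges did not overlap in this comparison for 2 of the 53 members, both higher, and 1.15% of all genes. In WT at 3 h they did not overlap for 5 of 53, col17a1a, col5a3b, col28a2a, col7a1l and col28a1a, all lower, where they did not for 2.98% of all genes. In KO the counts were 1 of 53 at 3 h, against 1.58% of all genes, and 0 at 24 h, against 1.52%. The KO response minus the WT response was called for 0 members at 3 h and at 24 h, and 0 had an unadjusted p under 0.05, where 0% of all genes were called and 0.929% and 1.14% had such a p. Its smallest p belonged to col21a1 at 3 h (0.45, 95% interval -0.24 to 1.15) and to col14a1b at 24 h (-0.33, -0.82 to 0.16).

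Without both sets of 6 libraries, edgeR called col9a1b at 3 h in WT (-0.98, adjusted p = 0.0280) and 5 members at 3 h in KO, all lower: col9a1b (-1.04, adjusted p = 0.0206), col1a1a (-0.60, adjusted p = 0.0166), col5a3b (-0.47, adjusted p = 0.0383), col17a1a (-0.39, adjusted p = 0.0176) and col18a1a (-0.37, adjusted p = 0.0475). In that fit 0.281% of all genes were lower at 3 h in WT and 0.281% in KO. These rest on 2 libraries in each group. In WT replicates 3 and 4, which that fit leaves out, col9a1b was at 229 and 231 CPM at 3 h against 221 and 197 CPM in DMSO. In the left-out KO libraries, col9a1b was at 101 and 103 CPM at 3 h against 99.9 and 97.6 CPM in DMSO. There col1a1a was at 571 and 579 against 603 and 581 CPM, and col18a1a at 268 and 261 against 266 and 271 CPM. The col17a1a values were 117 and 81.3 against 117 and 99.7 CPM, and those of col5a3b 64.7 and 32.7 against 58.9 and 41.2 CPM. Summed over its 4 markers, the notochord list was at 38.9 to 190 CPM in WT at 3 h and at 42.1 to 105 CPM in KO at 3 h, against 109 to 180 and 98.8 to 144 CPM in DMSO. Most of these sums was cmn, which was at 30.5 to 166 CPM over the 24 libraries. The part of the notochord in the col9a1b values was not tested.

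Genes that make, move and remodel collagen were described from lists, in KO against WT averaged over the 3 treatments. In that comparison 9.39% of all genes were higher and 6.30% lower, and with the library pair as a random block 0 genes of any list were called. Of 19 tested genes for chain modification and folding, 1 was higher, plod2, a lysyl hydroxylase (0.55), and the next smallest p was that of p4ha2, a prolyl hydroxylase subunit (0.35, edgeR adjusted p = 0.0565). Their median log2 fold change was 0.15, against -0.01 over all genes. Of 7 secretion genes, 1 was higher, the transcription factor creb3l2 (0.23), and sec23b, a coat protein of transport vesicles, was at 0.27 without passing; the median was 0.10. Of 19 genes for procollagen processing and cross-linking, 4 were higher, led by the lysyl oxidase loxl2a (1.01) and the proteinase enhancer pcolcea (0.72), and 1 was lower, with a median of 0.16.

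Of 13 matrix proteins associated with fibrils, 2 were higher, the fibronectins fn1b (1.06) and fn1a (0.81), and 1 was lower, with a median of -0.05. Of 15 other basement membrane proteins, 3 were higher, among them the laminin chains lamb1b (0.31) and lama1 (0.39), and 0 were lower, with a median of 0.10, while 3 type IV chains were lower. Of 12 collagen receptors, 5 were higher, among them the integrin chains itga11b (1.17) and itga11a (0.63), and 0 were lower, with a median of 0.27. Of 8 collagen-degrading enzymes, 7 were higher and 0 lower, with a median of 1.11. Within these, mmp9, a gelatinase, was at 7.97 to 15.3 CPM in WT libraries and 31.1 to 418 CPM in KO libraries (log2 fold change 3.96, SE 0.36, edgeR adjusted p = 2.22e-06), and the collagenase locus mmp13a with the smaller p was at 1.46 to 2.77 and 6.47 to 254 CPM (5.03, SE 0.51, adjusted p = 6.29e-06). Both had WT and KO ranges that did not overlap, which no collagen had. A second locus of the same symbol, mmp13a, also passed. Counting may have split reads between these loci if their sequences are alike, which was not compared.

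Without the 6 KO libraries at positive PC1, 3 of the 8 degrading enzymes, 1 of 19 modification genes, 0 of 7 secretion genes, 1 of 19 processing genes, 1 of 13 fibril-associated genes, 0 of 15 basement membrane genes and 0 of 12 receptors were higher. Without both sets of libraries, the counts that were higher were 6, 2, 2, 4, 2, 4 and 2 in the same order. They were 5, 2, 2, 3, 2, 3 and 1 without WT replicates 3 and 4. Of all genes, 1.79% were higher without the 6 KO libraries, 5.22% without both sets and 4.73% without WT replicates 3 and 4. No gene of these lists was lower in any of the 3 fits, where 2.28%, 4.82% and 1.71% of all genes were lower.

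Markers of tissues were described from lists in the same way, and their course beside that of the collagens was not tested. In the averaged comparison 9.39% of all genes were higher and 6.30% lower. Of 3 tested macrophage and neutrophil markers, all 3 were higher in KO in the averaged comparison, with mpx at 1.19 and mfap4 at 2.21; their sum was 17.3 to 26.1 CPM in WT, 23.4 to 30.0 CPM in the 6 KO libraries at negative PC1 and 68.6 to 82.6 CPM at positive PC1. Most of that sum was mpx, at 15.6 to 71.4 CPM over all libraries. Of 4 epidermis markers, 3 were lower, among them the keratins krtt1c19e (-0.63) and cyt1 (-0.24). The transcription factor tp63 was at 0.54 without passing (edgeR adjusted p = 0.0507). With DESeq2 and with the replicate block, 1 of the 4 was called higher and 3 lower. The sum of all 4 was 4224 to 4842 CPM in WT. In KO it was 3316 to 3856 CPM at negative PC1 and 2464 to 3192 CPM at positive PC1. In that sum tp63 held 12.6 to 34.5 CPM. Of 5 cartilage markers, 2 were lower, epyc (-0.48) and matn1 (-0.40); their sum was 632 to 763 CPM in WT replicates 1 and 2, 962 to 1105 CPM in WT replicates 3 and 4 and 619 to 752 CPM in KO. Fin fold and mesenchymal markers gave 2 higher, pdgfra (0.16) and twist1a (0.53), and 1 lower of 5. Their sums were 1414 to 1535 CPM in WT replicates 1 and 2 and 1924 to 2169 CPM in WT replicates 3 and 4. In KO the sums were 1340 to 1764 CPM.

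Of 3 tendon markers 1 was lower, tnmd (-0.31), while scxa and tnc did not pass. Their sums were 85.5 to 102 CPM in WT, 81.7 to 92.4 in KO at negative PC1 and 68.2 to 79.9 at positive PC1. None of the 5 bone, 4 notochord and 4 endothelium markers passed in the averaged comparison; the smallest p values were those of sp7 (-0.29) and ifitm5 (-0.26), of cmn (-0.46), and of pecam1 (0.50) and kdrl (0.09). Their sums in WT and KO were 20.1 to 32.3 and 16.8 to 30.9 CPM for bone, 38.9 to 190 and 42.1 to 144 CPM for notochord, and 131 to 143 and 122 to 180 CPM for endothelium. The sums differed by library set. Bone was at 30 to 32.3 CPM in WT replicates 1 and 2 and 20.1 to 24 CPM in WT replicates 3 and 4. In KO it was at 28.3 to 30.9 CPM at negative PC1 and 16.8 to 21.4 CPM at positive PC1. Notochord was at 38.9 to 126 and 165 to 190 CPM in the same WT sets, and most of its sum was cmn, at 30.5 to 166 CPM over all libraries. Endothelium was at 122 to 136 CPM in KO at negative PC1 and 159 to 180 CPM at positive PC1. The bone marker runx2a was at 0 counts in at least 1 library, and no other tested marker was at 0. Without the 6 KO libraries at positive PC1, 1 macrophage and neutrophil marker was still called higher, and 1 epidermis, 0 cartilage and 0 tendon markers lower. Of all genes, 1.79% were higher and 2.28% lower there. Without WT replicates 3 and 4, 0 macrophage and neutrophil markers were called. Their median log2 fold change was 1.30, against 1.28 with all libraries. In that fit 1 notochord marker was higher and 1 epidermis marker lower, where 4.73% of all genes were higher and 1.71% lower. The part of these cells in the collagen levels was not tested.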

How the data were processed

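Gene counts of 24 poly(A) libraries were used as deposited by the authors, as whole-number counts per gene with symbol, position and length. The submitters' processing notes name HISAT2 2.0.5, StringTie, featureCounts, R 4.3.2, DESeq2 1.42.1 and build GRCz11, without roles; per the labels' protocols second-strand synthesis used dUTP, and the strand setting of counting is not given in the sources used here. Totals were 28950937 to 43352202 counts, and TMM factors 0.833 to 1.083. No pair of libraries of a group agreed within sampling noise, and none was merged.

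Groups followed the labels. In R 4.3.3, edgeR 4.0.16 (TMM, filterByExpr at 10 counts, 27010 of 37660 genes, quasi-likelihood test on all 24 libraries, Benjamini-Hochberg over all genes tested, adjusted p under 0.05) gave 10 comparisons. The fit was tried on simulated independent libraries without pairs, for KO DMSO against WT DMSO only. That trial does not cover the averaged comparison. Alternatives were RLE size factors, no filter, DESeq2 1.42.0, compared groups alone, a replicate block and leaving out each library. Those leaving out library sets, and limma 3.58.1 voom with library pairs as a random block (correlation 0.591), were chosen after seeing the data.

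The members and lists were chosen with earlier results of these data known. Named members were the 3 highest per kb in each class, the 3 with the smallest p in KO DMSO against WT DMSO and in the averaged comparison, and the smallest p of each other comparison; members called in the averaged comparison, and chains of the 6 KO libraries that stand apart, were named after their values were seen. Lists covered chain modification and folding, secretion, processing and cross-linking, fibril-associated and other basement membrane proteins, receptors and degrading enzymes. Marker lists covered cartilage, bone, tendon, notochord, epidermis, fin fold, endothelium, and macrophages and neutrophils. Each list was given with the 2 smallest p, except tendon and notochord, given with the values of tnmd and of cmn only. Same-numbered replicates deviated together, every correlation over 0.1, in both WT responses, the KO response at 24 h and KO against WT at 3 h, and not in the other comparisons. Of the members, 18 overlap another annotated locus, 11 of them on the opposite strand. For col7a1l, col4a3, col4a4 and col10a1b the whole counts of the overlapping loci exceed 10% of their own, and those values are uncertain.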

Additional observations from a re-analysis of the deposited data

Results flagged for a closer look

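A single library stood far from the other 3 of its group, by Dixon's ratio over the group's range at the 95% level, in 3 of 156 groups tested over 26 measures, where chance gives about 7.8. In WT at 24 h, replicate 4 was at 216 CPM for col4a6, against 169 to 174 CPM in the others. The same library was at 132 CPM for col12a1b, against 97.6 to 103 CPM. In KO DMSO, replicate 2 was at 0.753 CPM for the low-level col10a1b, against 1.38 to 1.5 CPM.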

How the results depend on the processing

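In KO against WT averaged over treatments, 14 members passed with RLE size factors as well, where 15.6% of all genes did, 13 without a filter, where 11.5% did, and 16 with DESeq2. With a replicate block 18 passed, and it changed no count of 0. Leaving out 1 library gave 8 to 17, where 3036 to 5372 of all genes passed. It was 8 or 9 for each of WT replicates 3 and 4 and each of the 6 KO libraries at positive PC1. The count was 0 without those 6 KO libraries, 4 without WT replicates 3 and 4, 10 without both and 0 with library pairs as a random block. Of all genes, 4.07%, 6.44%, 10% and 0.0037% passed in the same order. Counts of other comparisons stayed at 0 except without both sets, where WT at 3 h gave 1 and KO at 3 h gave 5. The cause was not tested.

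Signs changed for values near 0 and, without library sets, for larger ones, among them the called col9a1b (-0.68), col4a6 (-0.33), col4a5 (-0.31) and col9a2 (-0.29). The averaged log2 fold change of col1a1b was 0.01 with the block and -0.06 to 0.04 over libraries left out, that of col1a2 -0.07 to 0.03 and that of col4a2 -0.06 to 0.07. Without the 6 KO libraries, averaged values were -0.01 for col5a2a, -0.19 for col5a1 and 0.16 for col4a2; col5a1 in DMSO was -0.08, and col4a2 in KO at 24 h was 0.03, as without both sets. Without WT replicates 3 and 4 they were 0.34 for col1a1b and col1a2, 0.18 for col2a1a, 0.11 for col11a2 and col9a1b, 0.01 for col4a5, 0.03 for col9a3 and 0.06 for col16a1, and col4a5 in DMSO was 0.06. Without both sets they were 0.09 for col1a1b and col1a2, 0.12 for col2a1a, col9a3 and col16a1, 0.19 for col11a2, 0.08 for col4a5, 0.04 for col4a6, 0.07 for col4a2 and 0.06 for col9a2 and col14a1b. In DMSO without both sets, col5a2b was at 0.01, col4a4 and col4a6 at 0.09 and col4a5 at 0.12, and the col21a1 difference of responses at 3 h was -0.04. Groups of 4 pools limit what could be seen, and low genes such as col10a1b carry few counts.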
